A study of Arabidopsis thaliana with 54 samples.

Results

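The WRKY genes of Arabidopsis were followed through a root RNA-seq time course of the Casparian strip integrity factor CIF2. The 57 genes described here were chosen by family membership and gene identifier, not by the response of each gene. Earlier results of these data were known when they were chosen. They are 57 of the 34262 genes counted in each library, and 57 of the 72 genes that the RefSeq gene table names WRKY by symbol or synonym. Levels are given in CPM, the reads of a gene scaled to the size of its library. Of the 57, 52 had 1 CPM or more somewhere in the series and were tested, as were 19668 genes in all. WRKY12, WRKY13, WRKY50, WRKY55 and WRKY62 stayed below that level everywhere and were not tested.

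WRKY proteins are plant transcription factors named after a conserved peptide of their DNA-binding domain, which recognises the W box, a short promoter element. They are sorted into group I with a pair of WRKY domains, groups IIa to IIe with a single domain, and group III with a different zinc finger. Many are known from immunity, where a MAP kinase cascade activates some members and others repress defence genes, and from senescence and phosphate starvation. CIF2 is a sulfated peptide made in the stele that binds SGN3, a receptor kinase of the endodermis. This pathway controls how the Casparian strip, the lignin barrier of the endodermis, is closed.

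Whole roots of 5-day-old seedlings in the Col-0 background were sequenced 30, 120 or 480 min after a move to fresh medium that held 100 nM CIF2 or no peptide. The genotypes were cif1 cif2, a double mutant with the CRISPR alleles cif1-2 and cif2-2 of the peptide genes, sgn3, which carries the T-DNA allele sgn3-3 of the receptor gene, and wild type (WT). Each of the 18 groups had 3 libraries, 1 from each of 3 batches named in the sample titles. For the 3 cif1 cif2 libraries titled CIF2 at 480 min the treatment label says no peptide, and they were taken by their titles. All values for cif1 cif2 with CIF2 at 480 min rest on these libraries.

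Between 21328819 and 38588050 reads per library fell on genes. SGN3 had 19.9 to 46.5 CPM in sgn3, 90.2 to 347 CPM in cif1 cif2 and 105 to 290 CPM in WT. The 3 endodermal markers CASP1, SCR and MYB36 were present in every library, with medians of 216, 47.96 and 37.3 CPM. MYB36, the transcription factor of Casparian strip formation, was itself called higher with CIF2 at 30 and 120 min, with log2 fold changes of 1.76 and 1.76 in cif1 cif2 and 1.04 and 1.60 in WT. The summed level of the 3 markers was 284 to 371 CPM with CIF2 and 235 to 297 CPM without peptide in cif1 cif2 at 30 min. By 120 min it was 471 to 525 CPM with CIF2 and 229 to 328 CPM without peptide in cif1 cif2, and at 480 min 366 to 482 CPM with CIF2 and 237 to 280.2 CPM without peptide. In WT the sum was 287 to 359 CPM with CIF2 and 313 to 375 CPM without peptide at 30 min, 379 to 451 CPM with CIF2 and 285 to 404 CPM without peptide at 120 min and 325 to 393 CPM with CIF2 and 249.9 to 294 CPM without peptide at 480 min. The groups overlapped in WT at 30 and 120 min, in cif1 cif2 at 30 min and in sgn3 at each time. The markers in this sum did not move together. Over all genotypes at 480 min, CASP1 had a median of 289 CPM with CIF2 and 178 CPM without peptide. MYB36 had 38.0 and 25.7 CPM, and SCR 38.9 and 50.8 CPM. By these medians SCR was lower with CIF2 at each time. The study reported CASP genes among those regulated by CIF treatment.

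Of 5 shoot markers, the photosynthesis genes RBCS1B and CAB3 did not exceed 0.541 and 1.16 CPM in any library, while LHB1B2 had 9.04 to 89.4 CPM (median 55.1), RBCS1A 2.02 to 11.3 CPM and LHCA1 2.06 to 7.64 CPM. LHB1B2, a light-harvesting protein gene, was called lower with CIF2 in cif1 cif2 at 120 min and in both cif1 cif2 and WT at 480 min. The sum of the 5 was 59.9 to 87.9 CPM with CIF2 and 68.4 to 90.8 CPM without peptide in cif1 cif2 at 30 min. By 120 min it was 38.3 to 54.4 CPM with CIF2 and 89.96 to 107 CPM without peptide in cif1 cif2, and at 480 min 14.3 to 28.96 CPM with CIF2 and 30.2 to 49.8 CPM without peptide. It was 56.5 to 74.9 CPM with CIF2 and 78.5 to 94.4 CPM without peptide in WT at 30 min, 41.8 to 56.7 CPM with CIF2 and 66.7 to 94.3 CPM without peptide in WT at 120 min and 14.1 to 20.5 CPM with CIF2 and 29.6 to 48.2 CPM without peptide in WT at 480 min. The groups overlapped in cif1 cif2 at 30 min and in sgn3 at each time. Most of this sum was LHB1B2. Over all genotypes at 120 min, LHB1B2 had a median of 43.4 CPM with CIF2 and 77.5 CPM without peptide. RBCS1A had 6.31 and 6.61 CPM, and LHCA1 4.90 and 5.84 CPM. At 480 min the medians were 13.4 and 28.1 CPM for LHB1B2, 4.21 and 6.29 CPM for RBCS1A and 2.32 and 2.84 CPM for LHCA1. The part of either marker list in the results was not tested. In whole roots, fewer cells of a type and less RNA per cell cannot be told apart.

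WRKY transcripts covered a wide range of levels in these roots. Scaled to exon length, the mean level over the 54 libraries was highest for WRKY17 (96.4 CPM per kb), WRKY11 (87.9), WRKY65 (87.5), WRKY6 (69.6) and WRKY36 (60.6). WRKY17 and WRKY11 are close relatives in group IId known as negative regulators of basal resistance, and WRKY6 is known from phosphate starvation and senescence. The 5 genes that were not tested had at most 17 counts in any library, and WRKY12, a regulator of secondary walls in stems, had at most 1. WRKY50 had 14 counts with CIF2 and 4 without in cif1 cif2 at 30 min, a ratio of 3.78 (exact 95% interval 1.19 to 15.8). At 480 min it had 26 and 5 there, a ratio of 4.94 (1.87 to 16.5). In WT at 30 min and sgn3 at 480 min its intervals included 1. These intervals cover counting error alone.

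With CIF2, 15 of the 52 tested WRKY genes rose past the threshold in cif1 cif2 or WT. The threshold was an adjusted p of 0.05 (edgeR's quasi-likelihood test, Benjamini-Hochberg adjustment over all 19668 genes) together with a log2 fold change past 1 in either direction. All 15 passed in cif1 cif2 (28.8%, against 4.48% of all genes), and 12 of them in WT (23.1%, against 3.47%), with WRKY8, WRKY46 and WRKY74 below the threshold in WT. Without the 3 libraries whose labels conflict, cif1 cif2 had 13 called members over the other 2 times. No member fell past it. WRKY71, among the 15, reached 1 CPM only in libraries of cif1 cif2 and WT with CIF2. WRKY41, also among them, reached it in these genotypes with CIF2 at 120 min. Whether such genes were among the 52 thus depended on the groups where they were high. In sgn3 no member passed in either direction, against 0.0254% of all genes. The plot of log2 fold changes for the 52 genes shows these calls together with the smaller changes described further on.

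**Figure D1:**
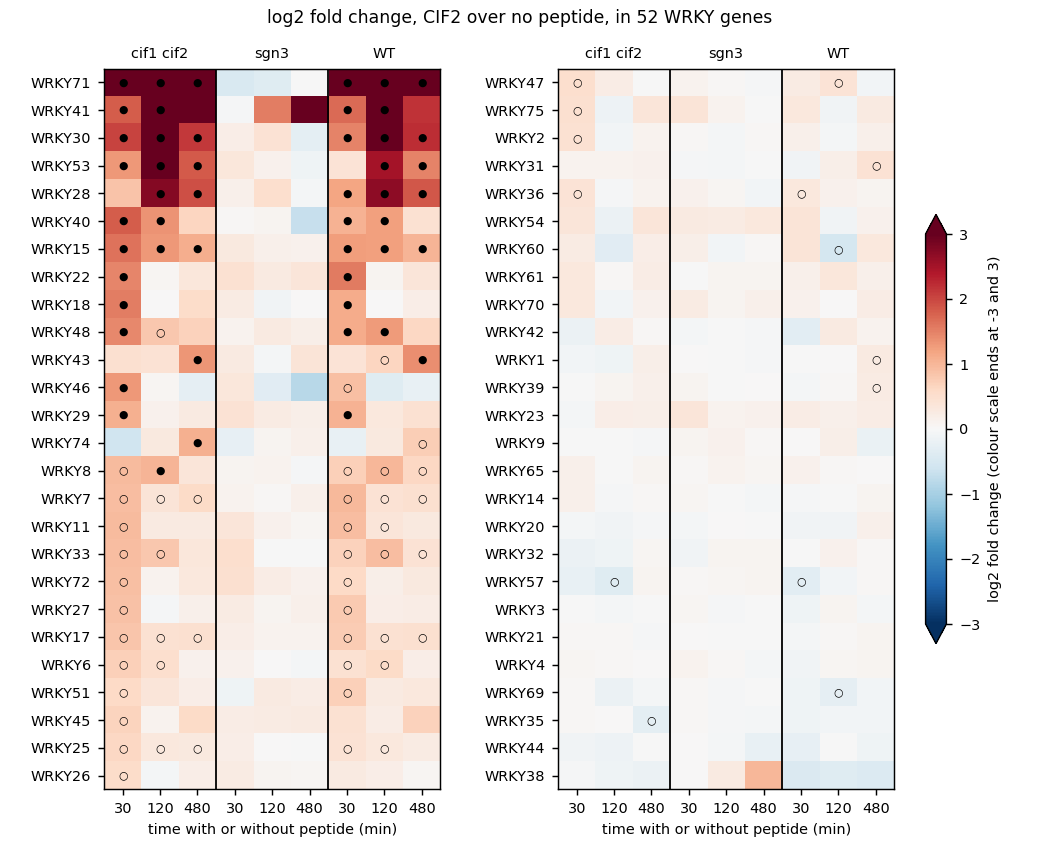
Colours give the log2 fold change of CIF2 over no peptide for each of 52 WRKY genes (rows) at 30, 120 and 480 min in cif1 cif2, sgn3 and WT, with the colour scale ending at -3 and 3. Filled circles mark genes past both thresholds, open circles the adjusted p alone. Circles stand in the cif1 cif2 and WT columns and none stands in the sgn3 columns.

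At 30, 120 and 480 min, 11, 8 and 7 members had risen in cif1 cif2, which is 21.2%, 15.4% and 13.5% of those tested, against 1.81%, 1.77% and 2.12% of all genes. In WT the counts were 10, 8 and 6 (19.2%, 15.4% and 11.5%), against 1.14%, 1.25% and 1.93% of all genes. In sgn3 they were 0, 0 and 0, against 0.0254%, 0% and 0%. At an unadjusted p under 0.05, sgn3 had 9, 0 and 2 members at these times, and limma-trend and DESeq2 also called 0 there. In sgn3 at 30 min, 43 of the 52 members had a log2 fold change above 0, while the median of all genes was -0.008. The largest there was 0.51 for WRKY33. In WT at 30 min the count was 4 without batch 2, and in WT at 480 min it was 4 without batch 1.

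The median log2 fold change over the 52 members was 0.48, 0.08 and 0.20 at the 3 times in cif1 cif2, where the median of all genes lay between -0.02 and 0. In WT it was 0.36, 0.17 and 0.24, against medians of all genes between -0.01 and 0. In sgn3 it was 0.11, 0.07 and 0.03. The CPM of all 57 members summed to 2660 ± 262 with CIF2 and 1886 ± 60.4 without peptide in WT at 30 min, and to 1524 ± 96.8 with CIF2 and 1296 ± 58.2 without peptide at 480 min (SD, n = 3 each). In sgn3 the sum was 2034 ± 86.8 with CIF2 and 1783 ± 125 without peptide at 30 min, and the treated libraries lay above the untreated ones. At 480 min it was 1340 ± 34.7 and 1319 ± 26.7 in sgn3.

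By structural group, the called genes were 4 of 7 tested in group III, 2 of 3 in IIa, 5 of 9 in IIc, 2 of 7 in IId and 2 of 7 in IIe, all of them in cif1 cif2, where 4.48% of all genes were called at least once. None of the 11 genes assigned to group I, WRKY45 among them, and none of the 8 of group IIb was called. The groups were taken as assigned, and the number of WRKY domains in each protein was not checked.

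The promoters of WRKY71, WRKY41 and WRKY30 are shown first, because these 3 genes had the largest log2 fold changes. Each is the 250 bases before the annotated gene start, read 5′ to 3′ on the strand of the gene from the RefSeq assembly TAIR10.1. Capitals mark the W box, searched as TTGACC or TTGACT on both strands, so that GGTCAA and AGTCAA are the same motifs on the other strand.
WRKY71 (chr1:10454183-10454432, + strand): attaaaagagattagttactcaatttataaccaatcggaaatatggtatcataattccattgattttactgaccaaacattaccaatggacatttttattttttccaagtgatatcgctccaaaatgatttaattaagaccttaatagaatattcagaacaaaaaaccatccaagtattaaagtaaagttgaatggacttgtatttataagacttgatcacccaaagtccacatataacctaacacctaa
WRKY41 (chr4:6758848-6759097, + strand): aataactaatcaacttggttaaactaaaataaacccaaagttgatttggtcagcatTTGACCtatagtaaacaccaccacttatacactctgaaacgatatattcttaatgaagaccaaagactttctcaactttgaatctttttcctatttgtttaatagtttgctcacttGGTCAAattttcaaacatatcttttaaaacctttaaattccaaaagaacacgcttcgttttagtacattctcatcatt
WRKY30 (chr5:8154711-8154960, - strand): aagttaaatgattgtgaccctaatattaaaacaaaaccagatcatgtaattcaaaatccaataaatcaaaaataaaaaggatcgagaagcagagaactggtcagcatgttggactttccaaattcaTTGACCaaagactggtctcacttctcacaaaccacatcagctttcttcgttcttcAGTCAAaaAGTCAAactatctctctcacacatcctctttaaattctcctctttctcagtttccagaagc
WRKY41 had 2 matches, which stood 194 and 78 bases before the start. WRKY30 had 3, at 124, 69 and 61 bases before it. WRKY71, the gene with the largest fold change, had 0 in this stretch.

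In the window from 250 bases before to 50 after the start, 22 of the 57 members held a W box match (38.6%), against 32.4% of all 27443 protein-coding genes. At least 2 matches stood in 11 members (19.3%), against 7.7% of all. Among the 15 genes called under CIF2 there were 6 with a match, namely WRKY15, WRKY28, WRKY29, WRKY30, WRKY41 and WRKY53. In the 1000 bases before the start, 80.7% of members and 67.3% of all genes held at least 1. These are matches of letters and not binding sites.

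The largest fold change belonged to WRKY71 (AT1G29860), a group IIc factor known from shoot branching. In cif1 cif2 at 480 min it had 7.39, 9.30 and 7.96 CPM with CIF2, against 0.194, 0.0360 and 0.0337 CPM without peptide, a log2 fold change of 6.54 (SE 0.37, adjusted p = 2.25e-17). In WT at 480 min there were 7.86, 5.97 and 6.47 CPM with CIF2, against 0.303, 0.117 and 0.0709 CPM (log2 fold change 5.32, SE 0.33, adjusted p = 5.04e-16). Treated and untreated libraries did not overlap. In sgn3 it did not exceed 0.154 CPM in any library. The untreated libraries held few reads of WRKY71, and its SE, derived from the test statistic, is imprecise.

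WRKY71 was already higher at 30 min, when its levels with CIF2 were still low. It had 0.338, 0.515 and 0.597 CPM with CIF2 in cif1 cif2, where no untreated library held more than 3 counts, and 40 counts with CIF2 against 2 without gave a ratio of 21.6 (exact 95% interval 5.60 to 184), where the interval covers counting error alone. WT roots had 2.09, 1.55 and 1.31 CPM with CIF2, against 0.0445, 0.186 and 0.223 CPM without peptide (log2 fold change 3.34, SE 0.43). At 120 min the treated level was near its highest. It was then 8.48, 9.91 and 5.54 CPM with CIF2 in cif1 cif2, against 0.104, 0.1095 and 0.0964 CPM, a ratio of 79.2 (exact 95% interval 41.4 to 174) from 610 and 9 counts, and 9.69, 6.83 and 6.02 CPM with CIF2 in WT, against 0.501, 0.224 and 0.208 CPM (log2 fold change 4.62). The groups were apart in each of these comparisons.

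WRKY28 (AT4G18170), a close relative of WRKY71 that is known to activate the salicylic acid synthesis gene ICS1, was highest at 120 min. Its level was 8.17, 10.5 and 11.3 CPM with CIF2 in cif1 cif2, against 1.45, 1.20 and 1.70 CPM without peptide (log2 fold change 2.76, SE 0.24, adjusted p = 7.34e-12). WT roots had 7.05, 10.6 and 7.61 CPM with CIF2 and 1.35, 1.502 and 1.12 CPM without (log2 fold change 2.67, SE 0.24, adjusted p = 5.12e-11). There was no overlap in either genotype. At 480 min the log2 fold change was 1.92 in cif1 cif2 and 1.87 in WT, and at 30 min it was 0.85 in cif1 cif2, which did not pass, and 1.19 in WT. The WT call at 30 min (adjusted p = 0.0162) was lost without batch 2 (0.289) or batch 3 (0.0574).

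WRKY8, another group IIc gene, was low throughout, at 0.979 to 3.32 CPM. At 120 min it had 2.79, 3.30 and 3.32 CPM with CIF2 in cif1 cif2, against 1.69, 1.57 and 1.38 CPM without peptide. WT roots had 2.77, 3.20 and 2.99 CPM with CIF2, against 1.81, 1.57 and 1.20 CPM. Both genotypes were free of overlap. The log2 fold change was 1.01 in cif1 cif2 (adjusted p = 7.86e-07) and 0.99 in WT (adjusted p = 1.14e-06), so that nearly equal values stood on different sides of the threshold. The cif1 cif2 value was 0.97 without batch 2, 0.88 without batch 3 and 0.99 with limma-trend.

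The group IIc gene WRKY48, known as a repressor of basal defence, rose at the early times. At 30 min its level was 17.5, 15.005 and 12.9 CPM with CIF2 in cif1 cif2, against 5.45, 5.17 and 5.93 CPM without peptide (log2 fold change 1.45). WT roots had 16.3, 15.3 and 10.8 CPM with CIF2 and 8.41, 5.73 and 5.43 CPM without (log2 fold change 1.12, and 0.97 without batch 2). Every treated value was above every untreated one. At 120 min WT had 8.68, 15.3 and 9.73 CPM with CIF2, against 4.93, 5.24 and 3.80 CPM (log2 fold change 1.28, adjusted p = 1.35e-05), and the log2 fold change in cif1 cif2 was 0.81 (adjusted p = 0.00735).

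WRKY43, also of group IIc, was called at 480 min alone. Its level was 7.95, 8.85 and 9.01 CPM with CIF2 in cif1 cif2, against 3.57, 3.92 and 2.90 CPM without peptide (log2 fold change 1.32, SE 0.18, adjusted p = 1.76e-07). WT roots had 13.5, 10.2 and 8.87 CPM with CIF2 and 3.13, 5.71 and 3.79 CPM without (log2 fold change 1.39, SE 0.17, adjusted p = 2e-08). The treated libraries were above all untreated ones. At 30 and 120 min the log2 fold change was 0.47 and 0.44 in cif1 cif2 and 0.41 and 0.65 in WT. Tested directly, the effect at 480 min was larger than that at 30 min by 0.84 in cif1 cif2 (SE 0.25, adjusted p = 0.0242) and by 0.99 in WT (SE 0.24, adjusted p = 0.00597). That difference was lost in cif1 cif2 without batch 2 (0.299) or batch 3 (0.311), and in WT without batch 1 (0.323) or batch 3 (0.0541).

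In group III, WRKY30, WRKY41, WRKY46 and WRKY53 rose. WRKY30 (AT5G24110), an early gene of oxidative stress and immune responses, had 54.8, 64.8 and 66.9 CPM with CIF2 in cif1 cif2 at 30 min, against 15.97, 11.3 and 19.2 CPM without peptide (log2 fold change 2.02, SE 0.22). WT roots had 55.5, 57.7 and 55.4 CPM with CIF2 and 15.2, 17.997 and 26.7 CPM without (log2 fold change 1.497, SE 0.21). At 120 min all levels were lower. The gene then had 14.2, 14.1 and 8.09 CPM with CIF2 in cif1 cif2, against 0.690, 0.402 and 0.579 CPM, and 12.3, 7.99 and 5.82 CPM with CIF2 in WT, against 0.578, 0.639 and 0.625 CPM. The fold was larger than at 30 min although the treated level was lower, with a log2 fold change of 4.46 in cif1 cif2 (SE 0.37, adjusted p = 1.41e-12) and 3.82 in WT (SE 0.37, adjusted p = 1.97e-10).

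At 480 min WRKY30 had 2.17, 2.16 and 1.54 CPM with CIF2 in cif1 cif2, against 0.349, 0.396 and 0.607 CPM without peptide. WT roots had 2.42, 2.23 and 1.57 CPM with CIF2 and 0.370, 0.0391 and 0.887 CPM without. The groups did not overlap at any of the 3 times. The late calls (adjusted p = 0.00348 in cif1 cif2 and 0.00208 in WT) were lost without batch 1 (0.0707 and 0.0676) or batch 2 (0.0872 and 0.0857).

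WRKY53 (AT4G23810), a regulator of leaf senescence, was highest with CIF2 at 120 min. Its level was 28.9, 30.5 and 28.8 CPM with CIF2 in cif1 cif2, against 3.11, 3.10 and 3.66 CPM without peptide (log2 fold change 3.17, SE 0.21, adjusted p = 1.08e-15). WT roots had 18.1, 22.1 and 16.5 CPM with CIF2 and 3.16, 3.13 and 3.85 CPM without (log2 fold change 2.49, SE 0.20, adjusted p = 2.77e-12). The groups were far apart in both. At 480 min the log2 fold change was 1.84 in cif1 cif2 and 1.49 in WT.

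At 30 min WRKY53 had 13.03, 12.5 and 16.2 CPM with CIF2 in cif1 cif2, against 6.71, 4.68 and 5.49 CPM without peptide (log2 fold change 1.30). WT roots had 13.98, 12.1 and 13.2 CPM with CIF2 and 7.65, 6.54 and 15.8 CPM without, which did not pass (log2 fold change 0.42, adjusted p = 0.211). In WT the groups overlapped through the untreated library of batch 3. The difference of this effect between cif1 cif2 and WT was 0.88 and did not pass either (adjusted p = 0.658).

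WRKY41, a close relative of WRKY53 known from seed dormancy, was scarce, with 41 counts in its highest library. At 120 min it had 1.17, 1.59 and 0.674 CPM with CIF2 in cif1 cif2 against 0.0345, 0.0730 and 0 CPM without peptide, a ratio of 34.3 (exact 95% interval 11.3 to 169) from 88 and 3 counts. WT roots had 1.34, 0.957 and 0.553 CPM with CIF2, against 0, 0.0639 and 0 CPM, a ratio of 45.4 (exact 95% interval 12.2 to 381) from 87 and 2 counts. In both genotypes no untreated library held more than 3 counts, and there was no overlap. The calls at 30 min (adjusted p = 0.0329 in cif1 cif2 and 0.0322 in WT) were lost in cif1 cif2 without batch 1, 2 or 3 (0.231, 0.0542 and 0.188), and in WT without batch 2 (0.281) or batch 3 (0.289). Without the batch block they were also lost (0.0668 in cif1 cif2 and 0.0755 in WT).

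WRKY46, known from drought and salicylic acid responses, was raised at 30 min alone. Its level was 5.20, 4.23 and 4.55 CPM with CIF2 in cif1 cif2, against 1.92, 1.71 and 2.05 CPM without peptide (log2 fold change 1.30, SE 0.26, adjusted p = 2e-04). WT roots had 4.27, 5.84 and 3.36 CPM with CIF2 and 1.82, 2.45 and 2.75 CPM without, a log2 fold change of 0.91 (adjusted p = 0.0147). Neither genotype showed overlap. The other tested genes of group III, WRKY38, WRKY54 and WRKY70, did not pass under CIF2. WRKY38, for example, had 7.63, 16.2 and 5.30 CPM with CIF2 in cif1 cif2 at 30 min, against 6.94, 14.7 and 7.69 CPM without.

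WRKY15 (AT2G23320), a calmodulin-binding factor of group IId known from leaf cell expansion and osmotic stress, was called at all 3 times in both genotypes. At 30 min it had 106, 115 and 113 CPM with CIF2 in cif1 cif2, against 33.6, 39.6 and 34.4 CPM without peptide (log2 fold change 1.64, SE 0.10, adjusted p = 1.24e-16). WT roots had 118, 131 and 103 CPM with CIF2 and 49.3, 45.6 and 52.1 CPM without (log2 fold change 1.25, SE 0.10, adjusted p = 6.04e-13). At 120 min the log2 fold change was 1.29 in cif1 cif2 and 1.23 in WT. The level at 480 min was 57.1, 63.5 and 60.4 CPM with CIF2 in cif1 cif2, against 32.1, 26.2 and 27.1 CPM, and 64.7, 54.2 and 60.8 CPM with CIF2 in WT, against 27.6, 34.1 and 27.3 CPM. All treated libraries of these genotypes stood above the untreated ones of their time. The log2 fold change at 480 min was 1.08 in cif1 cif2 and 1.02 in WT, and in WT it was 0.93 without batch 1 and 0.97 without batch 3.

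WRKY74, also of group IId, was called at 480 min in cif1 cif2, with 2.70, 2.37 and 2.91 CPM with CIF2, against 1.36, 1.08 and 1.35 CPM without peptide (log2 fold change 1.06, SE 0.24, adjusted p = 0.00186). WT roots had 2.07, 1.64 and 2.57 CPM with CIF2 and 1.41, 1.53 and 0.922 CPM without (log2 fold change 0.74, adjusted p = 0.0486). Neither overlapped. At 30 min the cif1 cif2 libraries with CIF2 lay below those without, with a log2 fold change of -0.59 that did not pass (adjusted p = 0.161).

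WRKY22 and WRKY29, group IIe factors placed downstream of the flagellin receptor and its MAP kinase cascade, were called at 30 min alone. WRKY22 had 76.8, 94.1 and 79.1 CPM with CIF2 in cif1 cif2, against 24.9, 32.7 and 32.6 CPM without peptide (log2 fold change 1.47, SE 0.15, adjusted p = 7.14e-10). WT roots had 74.6, 82.6 and 68.05 CPM with CIF2, against 25.5, 29.7 and 22.1 CPM (log2 fold change 1.55, SE 0.16, adjusted p = 5.96e-10). By 120 min the groups overlapped. WRKY22 then had 30.2, 45.99 and 27.005 CPM with CIF2 in cif1 cif2 and 33.7, 46.3 and 20.6 CPM without, and the log2 fold change was 0.05 in cif1 cif2 and 0.08 in WT. The change of the effect between 30 and 120 min passed its own test in cif1 cif2 (-1.42, SE 0.22) and in WT (-1.47, SE 0.22).

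WRKY29 had 90.7, 114 and 81.6 CPM with CIF2 in cif1 cif2 at 30 min, against 42.2, 50.7 and 42.2 CPM without peptide (log2 fold change 1.08, SE 0.17, adjusted p = 4.49e-06). WT roots had 87.8, 99.5 and 69.7 CPM with CIF2 and 46.9, 43.6 and 34.1 CPM without (log2 fold change 1.04, SE 0.17, adjusted p = 1.69e-05). No overlap was seen, and the WT value was 0.96 without batch 2. At 120 min cif1 cif2 had 124, 184 and 116 CPM with CIF2 and 136, 163 and 91.2 CPM without, so that both were higher than at 30 min and overlapped.

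The group IIa genes WRKY18 and WRKY40, partly redundant repressors of basal defence that can pair with each other and with WRKY60, rose early. WRKY18 had 64.9, 36.2 and 44.97 CPM with CIF2 in cif1 cif2 at 30 min, against 14.4, 15.3 and 19.96 CPM without peptide (log2 fold change 1.54, SE 0.18, adjusted p = 9.45e-09). WT roots had 55.2, 52.9 and 41.4 CPM with CIF2 and 21.8, 18.6 and 28.3 CPM without (log2 fold change 1.11, SE 0.18, adjusted p = 1.04e-05). The groups were apart at 30 min and overlapped at 120 min, when the log2 fold change was 0.02 in cif1 cif2 and 0.02 in WT. The WT value at 30 min was 0.92 without batch 2.

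WRKY40 was less even between batches. At 30 min it had 120.4, 77.2 and 74.6 CPM with CIF2 in cif1 cif2, against 23.3, 18.7 and 36.4 CPM without peptide (log2 fold change 1.82, SE 0.28, adjusted p = 3.3e-06). WT roots had 115, 99.2 and 77.8 CPM with CIF2 and 37.6, 34.4 and 75.1 CPM without (log2 fold change 1.03, SE 0.27, adjusted p = 0.00913). The untreated WT library of batch 3 lay just below the lowest treated one. The WT call was lost without batch 1 (adjusted p = 0.208), batch 2 (0.223) or the batch block (0.053), and with limma-trend (0.0793) or DESeq2 (0.069).

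At 120 min WRKY40 had 12.8, 13.7 and 12.7 CPM with CIF2 in cif1 cif2, against 5.04, 5.22 and 5.17 CPM without peptide (log2 fold change 1.36, adjusted p = 0.00532). WT roots had 10.8, 12.6 and 11.03 CPM with CIF2, against 5.32, 4.51 and 5.10 CPM (log2 fold change 1.22, adjusted p = 0.0149). Treated libraries were above untreated ones in both. The call was lost in cif1 cif2 without batch 2 (0.0503), and in WT without batch 1 (0.058) or batch 2 (0.14). The plot of levels by library shows these courses for 9 of the called genes.

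**Figure D2:**
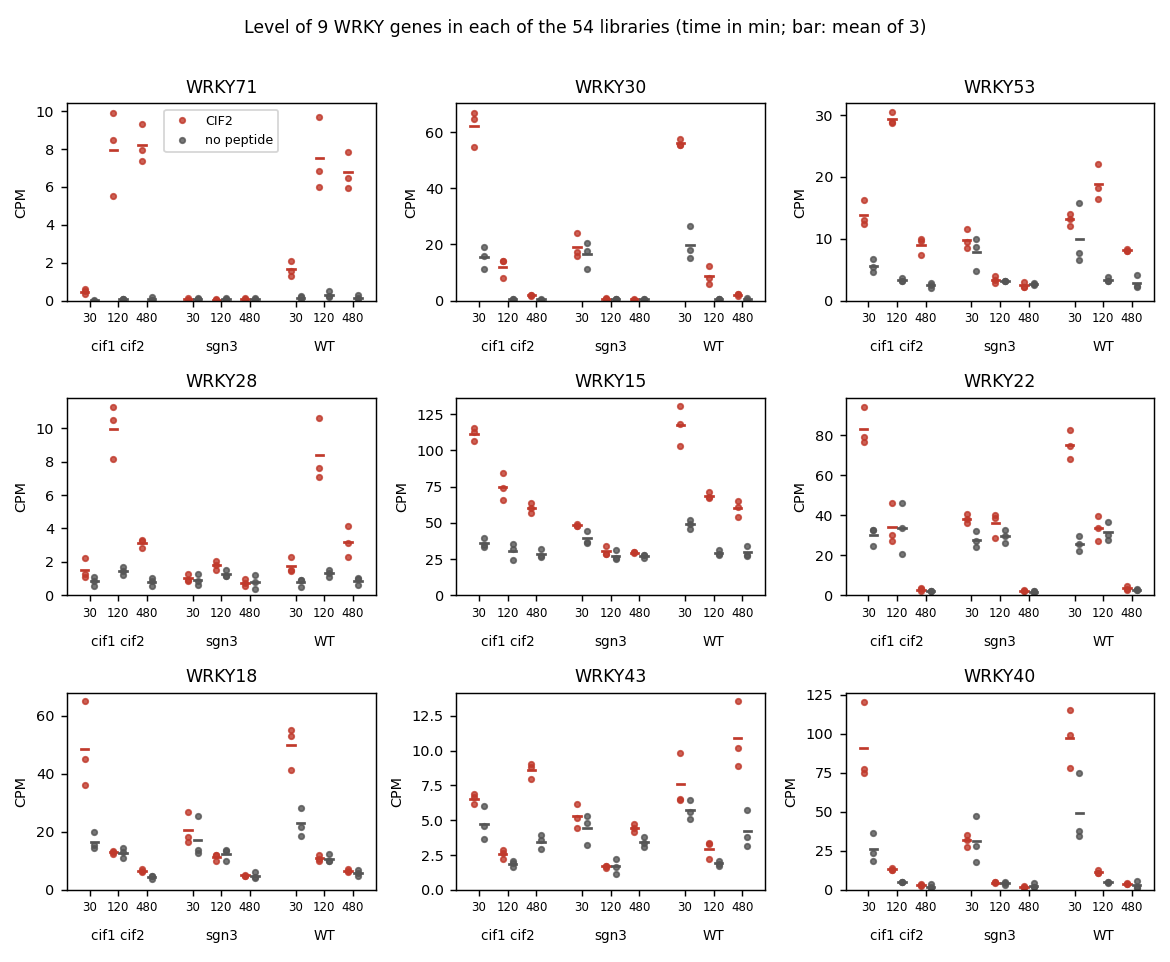
Points give the CPM of 9 WRKY genes in each library, with CIF2 to the left of no peptide at 30, 120 and 480 min in cif1 cif2, sgn3 and WT. WRKY71 stood far above its untreated level in the treated cif1 cif2 and WT libraries from 120 min on, and was at most 0.154 CPM in sgn3. WRKY22 and WRKY18 stood apart from their untreated libraries at 30 min in cif1 cif2 and WT, and WRKY43 most clearly at 480 min.

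How the effect changed with time was tested directly, on the adjusted p alone. In cif1 cif2, 12 members differed between 120 and 30 min, 4 between 480 and 120 min and 11 between 480 and 30 min, against 5.97%, 4.57% and 7.35% of all genes. For WT the counts were 6, 2 and 7, against 2.13%, 2.6% and 5.14%. At least 1 of these differences passed for 20 members in cif1 cif2 (38.5%, against 11.9% of all genes) and for 10 in WT (19.2%, against 6.69%). Without batch 1, 2 or 3 the count was 7, 13 or 13 in cif1 cif2, and without batch 1 it was 4 in WT. Without the batch block it was 10 in cif1 cif2 and 6 in WT. The smallest counts for a single pair of times were 0 in cif1 cif2 between 480 and 120 min without batch 1 or batch 2, and 1 in WT between 480 and 30 min without batch 1. WRKY18 and WRKY22 had smaller effects at 120 than at 30 min in both genotypes, and WRKY30 and WRKY53 larger ones. In WT the WRKY18 difference was lost without batch 1 (adjusted p = 0.121) or batch 2 (0.286), and the WRKY30 difference without batch 1 (0.0828).

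A further 22 members passed the adjusted p in at least 1 CIF2 comparison of cif1 cif2 or WT and stayed below the fold threshold. By the adjusted p alone, 27, 14 and 10 members were higher in cif1 cif2 at 30, 120 and 480 min, against 8.68%, 7.44% and 6.96% of all genes, and 0, 1 and 1 were lower, against 2.93%, 6.23% and 3.92%. In WT, 22, 17 and 14 were higher, against 5.78%, 6.3% and 6.88%, and 1, 2 and 0 were lower, against 2.01%, 4.28% and 3.23%.

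These smaller increases included WRKY17 and WRKY11, the 2 members with the highest level per kb. WRKY11 had 269, 301 and 238 CPM with CIF2 in WT at 30 min, against 142, 144 and 134 CPM without peptide, with a log2 fold change of 0.95 in cif1 cif2 and 0.94 in WT. WRKY7, a group IId gene with a calmodulin-binding domain, had log2 fold changes of 0.93 in cif1 cif2 and 0.97 in WT at 30 min and passed at all 3 times in both genotypes. WRKY17 also passed at all 3 times in both, with log2 fold changes between 0.46 and 0.82.

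WRKY33, the regulator of camalexin synthesis and of resistance to necrotrophic fungi, had 180.4, 194 and 169.7 CPM with CIF2 in WT at 30 min, against 113, 98.7 and 125 CPM without peptide. Its log2 fold change was 0.93 and 0.81 at 30 and 120 min in cif1 cif2, and 0.69, 0.93 and 0.43 at the 3 times in WT, with no overlap between the groups. In sgn3 at 30 min the log2 fold change of WRKY33 was 0.51 and did not pass (adjusted p = 0.0663). Its difference from the WT effect at 30 min did not pass either (-0.18, adjusted p = 0.744). WRKY6 had 0.72 and 0.50 at 30 and 120 min in cif1 cif2 and 0.45 and 0.57 in WT. WRKY72 and WRKY27 reached log2 fold changes of 0.90 and 0.89 in cif1 cif2 at 30 min.

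Of the 52 genes, 4 were lower with CIF2 by the adjusted p in 1 comparison or more. WRKY57, known from drought tolerance, had 35.2, 26.6 and 26.8 CPM with CIF2 in cif1 cif2 at 120 min, against 46.4, 38.1 and 29.99 CPM without peptide (log2 fold change -0.36, adjusted p = 0.00518). In WT at 30 min it had 58.8, 51.7 and 43.4 CPM with CIF2 and 74.2, 55.9 and 61.03 CPM without (log2 fold change -0.31, adjusted p = 0.0189). WRKY57 was lower with CIF2 in each batch of these comparisons, although the groups overlapped.

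WRKY60, the partner of WRKY18 and WRKY40, had 13.2, 7.23 and 8.69 CPM with CIF2 in WT at 120 min, against 13.8, 14.3 and 14.1 CPM without peptide (log2 fold change -0.54, adjusted p = 0.0162). At 30 min in WT it had 14.7, 18.4 and 18.2 CPM with CIF2 and 13.4, 11.6 and 14.03 CPM without, and the change of its effect between these times passed (-0.93, SE 0.22, adjusted p = 0.0101). That change was lost without batch 2 (adjusted p = 0.369) or batch 3 (0.116). WRKY69 was lower in WT at 120 min (log2 fold change -0.28, adjusted p = 0.00533), and WRKY35 in cif1 cif2 at 480 min (-0.29, adjusted p = 0.0138). For WRKY60, WRKY69 and WRKY35 the treated libraries of these comparisons lay below all untreated ones.

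The other 15 tested members did not reach the adjusted p under CIF2 at any time in any genotype. They were WRKY3, WRKY4, WRKY9, WRKY14, WRKY20, WRKY21, WRKY23, WRKY32, WRKY38, WRKY42, WRKY44, WRKY54, WRKY61, WRKY65 and WRKY70. WRKY44 is the trichome and seed coat regulator TTG2, and WRKY42 is known from the control of phosphate transport. WRKY65, among the most abundant members per length, ranged between 90.6 and 235 CPM over the 54 libraries. WRKY21, at 12.1 to 15.7 CPM, was the one tested gene that passed neither under CIF2 nor in the untreated time course.

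Whether the response needs the receptor was addressed by the difference of the CIF2 effect between sgn3 and WT, tested on the adjusted p alone. The effect was smaller in sgn3 for 5, 8 and 6 members at 30, 120 and 480 min (9.62%, 15.4% and 11.5%), against 1.48%, 2.36% and 3.57% of all genes, and larger for 0. In all, 13 members differed at least once (25%, against 7.32% of all genes in either direction), and 8 did without batch 1. The count at 30 min was 2 without batch 1 or batch 2 and 9 without batch 3, at 120 min it was 5 without batch 2, and at 480 min it was 3 without batch 1.

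WRKY15 differed at each time, by -0.95 (SE 0.14, adjusted p = 1.13e-05) at 30 min, -1.07 (SE 0.14, adjusted p = 1.13e-06) at 120 min and -0.89 (SE 0.14, adjusted p = 1.33e-05) at 480 min. In sgn3 it had 48.1, 49.4 and 48.1 CPM with CIF2 at 30 min and 44.6, 36.3 and 36.97 CPM without peptide. These sgn3 libraries did not overlap, but their log2 fold change of 0.30 did not pass (adjusted p = 0.511). WRKY22 in sgn3 at 30 min had 36.1, 40.5 and 37.95 CPM with CIF2 and 27.2, 32.1 and 24.4 CPM without (log2 fold change 0.46, adjusted p = 0.548). Its effect was smaller than in WT (difference -1.09, SE 0.22, adjusted p = 0.00208), a call lost without batch 1 (0.0655) or batch 2 (0.133).

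WRKY53 had 2.92, 3.32 and 3.999 CPM with CIF2 in sgn3 at 120 min, against 3.23, 3.14 and 3.10 CPM without peptide, and its effect differed from that in WT by -2.36 (SE 0.32, adjusted p = 2.68e-06). WRKY28 had 1.81, 2.06 and 1.51 CPM with CIF2 in sgn3 at 120 min and 1.48, 1.16 and 1.16 CPM without, and its difference was -2.17 (SE 0.39, adjusted p = 0.000336). The sgn3 values of WRKY53 overlapped and those of WRKY28 did not.

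The largest differences were those of WRKY71, at -4.99 (SE 1.26) at 120 min and -5.33 (SE 1.20) at 480 min, and of WRKY30, at -3.39 (SE 0.78) at 120 min. Their errors were wide. The WRKY71 calls were lost without batch 2 (adjusted p = 0.342) or batch 3 (0.0956) at 120 min and without batch 3 (0.354) at 480 min, and the WRKY30 call without batch 1 (0.126) or batch 2 (0.0764). WRKY30 also differed at 30 min (-1.29, adjusted p = 0.0113), a call lost with limma-trend (0.357), DESeq2 (0.178), without the batch block (0.0513) and without batch 1 (0.418) or batch 2 (0.17).

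Of the 15 genes called under CIF2, WRKY18, WRKY29, WRKY40, WRKY41, WRKY46, WRKY48 and WRKY74 did not pass this test at any time. WRKY18, for example, had 26.96, 18.2 and 16.5 CPM with CIF2 in sgn3 at 30 min, against 25.3, 12.7 and 13.9 CPM without peptide, and its difference from WT was -0.86 (adjusted p = 0.0683). The plot of differences gives the 13 genes that passed.

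**Figure D3:**
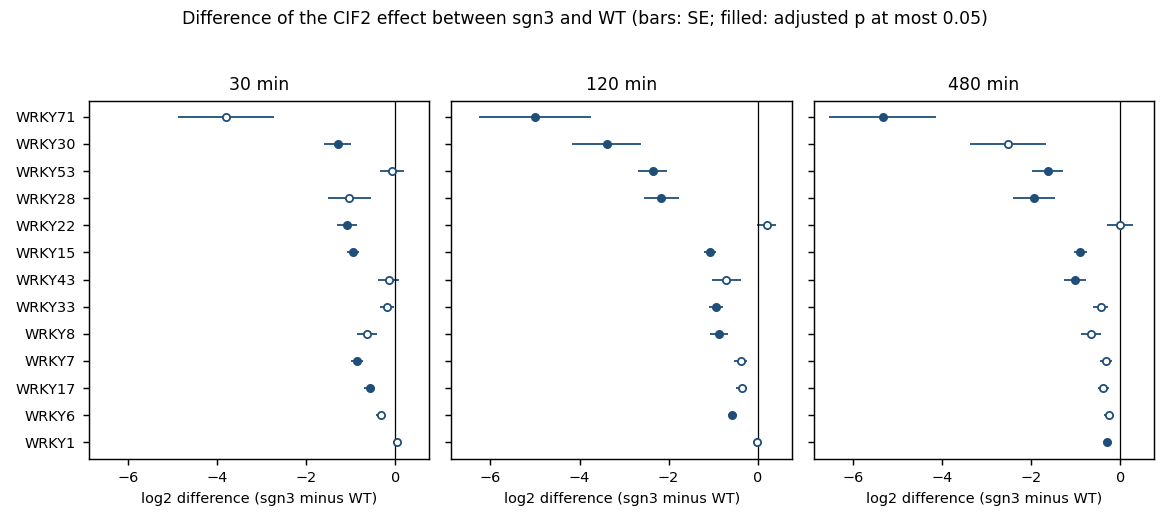
Points give the difference of the log2 CIF2 effect, sgn3 minus WT, for the 13 WRKY genes that passed at least once, in 1 panel per time, with bars for the SE and filled points for an adjusted p of at most 0.05. All filled points lie below 0, and WRKY15 is filled in the 3 panels.

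Between cif1 cif2 and WT, the difference of the CIF2 effect did not pass for any member at 30, 120 or 480 min (0, 0 and 0 of 52, against 0.0153%, 0.29% and 0.00508% of all genes). At an unadjusted p under 0.05 there were 4, 4 and 0 members at these times, and limma-trend and DESeq2 called 0.

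Without peptide, no member differed from WT past the fold threshold in cif1 cif2 (0 of 52 at each time, against 0.0915%, 0.0814% and 0.0559% of all genes) or in sgn3 (0 of 52, against 0.0508%, 0.0508% and 0.0559%). The members at an unadjusted p under 0.05 were 11, 14 and 4 in cif1 cif2 at the 3 times, and 6, 1 and 4 in sgn3, and limma-trend and DESeq2 called 0. By the adjusted p alone, 3 were lower in cif1 cif2 at 30 min, against 0.569% of all genes. They were WRKY53 (log2 difference -0.81, adjusted p = 0.0463), WRKY15 (-0.45, adjusted p = 0.0158) and WRKY33 (-0.44, adjusted p = 0.0482). WRKY15 had 33.6, 39.6 and 34.4 CPM in untreated cif1 cif2 and 49.3, 45.6 and 52.1 CPM in untreated WT, without overlap. These untreated libraries are shared with the CIF2 comparisons.

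The untreated WT roots themselves changed between the times. At 120 against 30 min, 5 members were higher and 9 lower past the threshold, against 2.06% and 3.4% of all genes. At 480 against 120 min it was 2 higher and 12 lower, against 1.68% and 3.38%, and at 480 against 30 min 1 higher and 16 lower, against 2.04% and 5.07%. The median log2 difference at 480 against 30 min was -0.45 over the members and 0.02 over all genes. At least 1 of the 3 comparisons called 24 members (46.2%, against 11% of all genes). Of these 24, 10 were also called under CIF2, as were 15 of all 52 tested members (28.8%). The share of all genes in both sets was not counted. The untreated WT libraries are also the reference of the CIF2 comparisons in WT, so that the sets are not independent.

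WRKY30 had 0.578, 0.639 and 0.625 CPM at 120 min, against 15.2, 17.997 and 26.7 CPM at 30 min, a log2 difference of -5.01 (SE 0.34, adjusted p = 2.44e-15). WRKY40 had 5.32, 4.51 and 5.10 CPM at 120 min and 37.6, 34.4 and 75.1 CPM at 30 min (log2 difference -3.28). WRKY38, a group III repressor of basal defence, had 0.437, 0.587 and 0.496 CPM at 480 min and 9.61, 13.4 and 15.96 CPM at 30 min (log2 difference -4.72, SE 0.32). Each of these genes was lower at the later time without overlap. WRKY46, WRKY53, WRKY33, WRKY18, WRKY41 and WRKY43 were also lower at 120 than at 30 min. The WRKY41 call was lost without batch 1 (adjusted p = 0.315) or batch 3 (0.2), and the WRKY18 value was -0.87 without batch 3.

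Other members were lower at 480 than at 120 min. WRKY22 had 2.62, 3.13 and 2.41 CPM at 480 min, against 36.7, 30.3 and 27.4 CPM at 120 min (log2 difference -3.54, SE 0.20, adjusted p = 3.12e-17). WRKY72, known from basal immunity, had 18.9, 17.6 and 18.8 CPM at 480 min and 146, 129 and 102 CPM at 120 min (log2 difference -2.76). WRKY29 had 13.99, 16.6 and 11.8 CPM at 480 min, 126, 98.2 and 78.7 CPM at 120 min and 46.9, 43.6 and 34.1 CPM at 30 min, so that 120 min was its highest time. WRKY54 followed the same course, with 2.82, 2.62 and 2.13 CPM at 480 min, 19.5, 21.6 and 13.5 CPM at 120 min and 7.08, 9.63 and 8.67 CPM at 30 min. The libraries at 480 and 120 min did not overlap for any of these 4 genes.

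A few members went the other way. WRKY42 had 11.2, 13.1 and 11.2 CPM at 480 min, against 4.54, 3.53 and 4.17 CPM at 30 min (log2 difference 1.54, SE 0.14, adjusted p = 4.9e-12). WRKY57 had 69.7, 79.7 and 62.4 CPM at 480 min, 39.3, 28.7 and 28.4 CPM at 120 min and 74.2, 55.9 and 61.03 CPM at 30 min, and was lowest at 120 min. WRKY57 and WRKY43 were called higher at 480 than at 120 min (log2 difference 1.15 and 1.14), and without batch 2 the values were 0.99 for WRKY57 and 0.95 for WRKY43. WRKY9, WRKY27, WRKY29, WRKY54 and WRKY74 were higher at 120 than at 30 min.

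**Figure D4:**
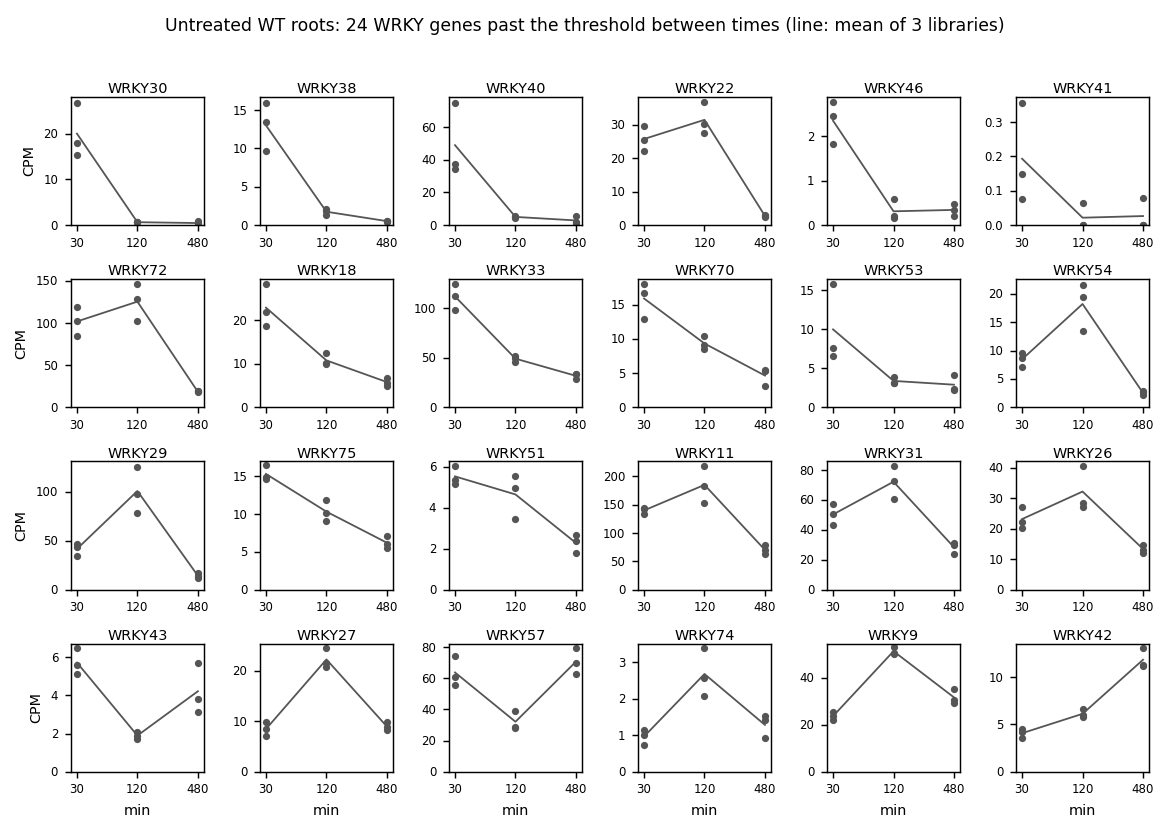
Points give the CPM of the 24 WRKY genes called in untreated WT roots between any pair of times (30, 120 and 480 min), with 3 libraries per time. Of the 17 genes called at 480 against 30 min, 16 were lower at 480 min, among them WRKY30 and WRKY38, and WRKY42 was higher.

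The touch-induced genes TCH2, TCH3 and TCH4 were lower at 120 than at 30 min in these untreated roots (3 of 3, median log2 difference -1.75), and the clock genes CCA1, LHY and PRR9 were lower at 480 than at 120 min (3 of 5 clock genes, median -1.28). By medians over all genotypes without peptide, the clock gene TOC1 went the other way, with 92.8 CPM at 120 min and 111 CPM at 480 min. GI, the remaining clock gene, had 145 and 91.0 CPM. The time since transfer and the time of day cannot be told apart in this design, and the part of either in the WRKY changes was not tested. The summed level of the 3 touch genes was 342 to 418 CPM with CIF2 and 128 to 155 CPM without peptide in WT at 30 min, and 132 to 157 CPM with CIF2 and 109 to 153 CPM without in sgn3. In cif1 cif2 it was 353 to 412 CPM with CIF2 and 114 to 123 CPM without. At 120 and 480 min the sum was also higher with CIF2 in cif1 cif2 and WT. Most of the rise at 30 min was TCH3, with medians over all genotypes of 285 CPM with CIF2 and 66.4 CPM without. TCH2 had 54.8 and 41.8 CPM, and TCH4 14.2 and 11.9 CPM.

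Genes that act with WRKY factors were counted from lists. None of 8 MAP kinase cascade genes was called under CIF2 in any genotype, where 1.14% to 2.12% of all genes were called higher at a given time in cif1 cif2 or WT and at most 0.0254% in sgn3. MPK3, a MAP kinase that phosphorylates WRKY33, had a log2 fold change of 0.92 in cif1 cif2 (adjusted p = 1.28e-08) and 0.66 in WT (adjusted p = 2.02e-05) at 30 min. Of 7 VQ genes, whose proteins bind WRKY factors, VQ10 was called at 30 min, with log2 fold changes of 1.38 in cif1 cif2 and 1.35 in WT, and in cif1 cif2 at 120 min (1.02).

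Of 13 genes known as WRKY targets, 12 were tested. FRK1, the flagellin-induced receptor kinase gene placed downstream of WRKY22 and WRKY29, had log2 fold changes of 1.07, 1.8002 and 2.98 at the 3 times in cif1 cif2 and of 0.10, 1.503 and 2.76 in WT, where the value at 30 min did not pass (adjusted p = 0.927). Its log2 fold changes were largest at 480 min, when those of WRKY22 were 0.35 in cif1 cif2 and 0.35 in WT. The level of FRK1 was lower at 480 than at 120 min, by medians over all genotypes. These were 35.6 CPM with CIF2 and 14.5 CPM without peptide at 120 min, and 7.61 and 1.499 CPM at 480 min. Whether WRKY22 acts on FRK1 in these roots was not tested. CYP71A12, a gene of camalexin synthesis, was called at 480 min (1.30 in cif1 cif2 and 1.06 in WT). The median log2 fold change of the 12 targets lay between 0.09 and 0.42 in cif1 cif2 and between 0.04 and 0.14 in WT, and none was called in sgn3.

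The libraries were made with a stranded kit, but whether the counting used the strand is not given in the sources used here. WRKY29, WRKY40, WRKY41 and WRKY53 among the called genes, and 11 members in all, overlap an annotated gene on the opposite strand, so that their counts are uncertain to that extent.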

How the data were processed

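The authors trimmed the reads with Cutadapt 1.8, aligned them to TAIR10 with STAR 2.5.3a and counted reads per gene with HTSeq 0.9.1. The deposited values are these raw counts, without normalization, for 34262 genes. A further 5 lines per file that name no gene were left out (4.72% to 5.15% of the reads). CPM values use TMM-scaled library sizes. Genes that reached 1 CPM in any library were tested with edgeR 4.0.16 (R 4.3.3) in a single quasi-likelihood fit of all 54 libraries, with a term for each of the 18 groups and 1 for each batch. P-values were adjusted per comparison by the Benjamini-Hochberg method. Each SE is the size of the log2 difference divided by the square root of the F statistic of its test. It was not estimated apart from that test and is imprecise for genes with few counts. Differences between effects were called on the adjusted p alone.

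Batch numbers come from the sample titles. Deviations from the group means correlated at 0.27 on average within a batch and -0.135 between batches, and 47 of 54 libraries correlated best with their own batch. The value between batches follows from the one within, since the deviations cancel out within each group. P-values measure the spread between these libraries, which may be technical. No pair of libraries agreed within sampling noise. For called members, and for WRKY50 in cif1 cif2, a ratio is given where no untreated library held more than 3 counts. It is the ratio of summed counts, scaled by library size, with its exact 95% Clopper-Pearson interval, which covers counting error only.

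The members and gene lists were chosen with earlier results of these data known. Members called under CIF2 are named with their values, the others by counts and selected values. The fit was tested on simulated data with changes in a single group, without batch effects or changes over time, unlike the real data. For CIF2 in WT at 120 min it called 100% of genes changed 3-fold. It called 0% of those changed 1.5-fold, a change that lies below the fold threshold. By the adjusted p alone, 80.6% of the genes changed 1.5-fold passed. False calls there were 2 among 19668 genes, and 9 by the adjusted p alone. Changes were given only to genes with enough counts, so that genes as scarce as WRKY41 are not covered. The difference between sgn3 and WT at 120 min had 5 false calls, and that between 120 and 30 min in WT had 10. Alternatives were DESeq2 1.42.0, limma-trend (limma 3.58.1), DESeq2 size factors, other filters and thresholds, no block, fits on the libraries of a single comparison, each batch left out, and leaving out the 3 libraries whose labels conflict. Promoters were read from RefSeq TAIR10.1 for the 57 members. Protein sequences were not analysed here.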

Additional observations from a re-analysis of the deposited data

Results flagged for a closer look

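The following WRKY genes stood out because their CIF2 effect differed between genotypes or between times by edgeR's test of the difference (Benjamini-Hochberg adjusted p of at most 0.05). All values are differences of log2 fold changes.

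For sgn3 minus WT at 30 min, they were -0.86 for WRKY7, -0.95 for WRKY15, -0.57 for WRKY17, -1.09 for WRKY22 and -1.29 for WRKY30. At 120 min, they were -0.57 for WRKY6, -0.88 for WRKY8, -1.07 for WRKY15, -2.17 for WRKY28, -3.39 for WRKY30, -0.94 for WRKY33, -2.36 for WRKY53 and -4.99 for WRKY71. At 480 min, they were -0.31 for WRKY1, -0.89 for WRKY15, -1.94 for WRKY28, -1.01 for WRKY43, -1.63 for WRKY53 and -5.33 for WRKY71. All of them were smaller effects in sgn3.

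Between times in cif1 cif2, the effect at 120 min minus that at 30 min was 1.87 for WRKY53, 1.91 for WRKY28 and 2.44 for WRKY30. It was -0.45 for WRKY36, -0.54 for WRKY7, -0.64 for WRKY75, -0.68 for WRKY11, -0.80 for WRKY72, -0.93 for WRKY27, -0.96 for WRKY29, -1.42 for WRKY22 and -1.52 for WRKY18. The effect at 480 min minus that at 120 min was 0.30 for WRKY1, 0.45 for WRKY57, -0.37 for WRKY6 and -1.33 for WRKY53. The effect at 480 min minus that at 30 min was 1.65 for WRKY74 and 0.84 for WRKY43. It was -0.51 for WRKY47, -0.55 for WRKY15, -0.59 for WRKY6, -0.60 for WRKY33, -0.67 for WRKY11, -0.72 for WRKY27, -0.81 for WRKY29, -0.99 for WRKY18 and -1.12 for WRKY22.

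Between times in WT, the effect at 120 min minus that at 30 min was 2.32 for WRKY30 and 2.08 for WRKY53. It was -0.55 for WRKY7, -0.93 for WRKY60, -1.10 for WRKY18 and -1.47 for WRKY22. The effect at 480 min minus that at 120 min was 0.84 for WRKY60 and -0.38 for WRKY6. The effect at 480 min minus that at 30 min was 0.28 for WRKY1, 0.99 for WRKY43 and 1.08 for WRKY53. It was -0.50 for WRKY7, -0.64 for WRKY11, -0.92 for WRKY18 and -1.20 for WRKY22.

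The direction of these time differences was the same in cif1 cif2 and WT for the genes that passed in both, such as WRKY22, WRKY18, WRKY30, WRKY53 and WRKY43. At least once between times, 20 members passed in cif1 cif2 and 10 in WT, against 11.9% and 6.69% of all genes.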

How the results depend on the processing

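The members called under CIF2 at least once were 15 in cif1 cif2 and 12 in WT, and they were 14 to 16 and 10 to 14 with 1 batch left out. Without the fold threshold both counts were 32. The sgn3, cif1 cif2 minus WT and untreated mutant counts were 0 under each alternative run, except 3 for untreated cif1 cif2 without the fold threshold. In untreated WT over time the count was 24, 46 without the fold threshold and 23 to 26 with a batch left out. The members whose effect differed between sgn3 and WT were 13, and 8 to 12 with a batch left out.

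Without the batch block the members whose effect differed between times were 10 in cif1 cif2 (20 with it) and 6 in WT (10 with it), and the block moved no other count by over 1.5 times. With a batch left out they were 7 to 13 in cif1 cif2 and 4 to 11 in WT, and at an adjusted p of 0.01 they were 11 and 4. Without the libraries with conflicting labels, 1 comparison was left in cif1 cif2, with 12. No named call turned its direction. Of the 156 calls followed, 1 lost its call with DESeq2 size factors, 1 with 1 CPM asked of 3 libraries, 2 with DESeq2, 3 with no low-count filter, 5 with limma-trend, 19 in fits on the libraries of the comparison, 27 without the block, 33 at an adjusted p of 0.01, and 51, 45 and 31 without batch 1, 2 or 3, where fewer libraries were tested. Without the libraries with conflicting labels, 132 kept their call and 2 lost it, the others not being testable. Genes near 1 CPM rest on few counts and their folds are imprecise.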
